A study of Homo sapiens with 18 samples.

Results

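Genes of cholesterol and fatty acid synthesis, with the carriers and regulators that go with them, were followed in 3 human urothelial cancer cell lines. The set holds 36 genes, named by symbol: the enzymes from acetoacetyl-CoA to cholesterol, the enzymes that build, elongate and desaturate fatty acids, the regulators SREBF1, SREBF2, SCAP and INSIG1, and genes of sterol transport and efflux. Of these, 35 had a named probe on the array and 34 were tested among 11978 genes in all. FDFT1 was not analysed here, and STARD4, a sterol carrier, was undetected on all 18 arrays. UC14 cells carried an shRNA against p63, a transcription factor of basal epithelia, or a non-targeting shRNA. Scaber cells received an siRNA against STAT3, which carries signals of cytokine receptors to the nucleus, or a non-targeting siRNA. UC7 cells were treated with rosiglitazone, a drug that activates the nuclear receptor PPARγ, at 1 µM for 24 h, or left untreated. Each of the 6 groups had 3 arrays, which the labels number but do not describe as separate cultures, so p-values measure the spread between arrays, which may be technical. All cells grew in serum-containing medium, and each intervention was made in 1 line only, so intervention and line cannot be told apart when the comparisons are set side by side.

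Cholesterol is made from acetyl-CoA through mevalonate, squalene and lanosterol. The enzymes of this route are induced together when membrane sterol is low: SCAP then carries the SREBP proteins, the products of SREBF1 and SREBF2, from the endoplasmic reticulum to the Golgi, where they are cut and released to the nucleus, and INSIG1 holds SCAP back when sterol is ample. SREBP-1 also induces fatty acid synthesis, including FASN and the desaturase SCD. Excess sterol activates the LXR receptors, which induce the efflux pumps ABCA1 and ABCG1 and the ubiquitin ligase MYLIP, and which also raise SREBF1. Since SREBP proteins are controlled by cleavage, the mRNA level of SREBF1 or SREBF2 does not report their activity.

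Values are log2 signals after background correction and quantile normalization of the 18 arrays, and changes are treated minus control within a line. Errors of a change are standard errors of a limma fit with 3 arrays per group. The fit took 1 spread per gene from all 6 groups, so a gene's error is the same in each line and is not that line's own spread. Arrays of a group correlated at 0.980 to 0.988 in UC14 and at 0.995 to 0.997 in UC7. A gene was called when its p-value, adjusted over all genes tested by Benjamini-Hochberg, was under 0.05. Median raw signal was 51.6 to 56.3 in UC7 and 96.3 to 115.8 in the other 2 lines, and 14032 to 20440 probes were detected per array. The p63 transcript was not analysed here, so its knockdown was not checked on the arrays. STAT3 mRNA changed by -3.26 on the log2 scale (adjusted p = 4.93e-12) in Scaber under its siRNA, and FABP4, a well-known PPARγ target, changed by 6.60 on the log2 scale (adjusted p = 2.51e-13) in UC7 under rosiglitazone. All 12 epithelial and urothelial markers were detected on some arrays, and KRT8, EPCAM and CDH1 on all 18, while COL3A1, DCN, PDGFRB and DES of the 8 fibroblast and muscle markers, PTPRC and CD3E of the 5 immune markers with a probe, VWF and KDR of the 4 endothelial markers and PLIN1 of the 4 adipocyte markers were detected on none. The remaining markers of these lists were detected on some arrays, and a few were bright. Log2 signals reached 11.81 for LUM and 10.08 for CD14 on Scaber control arrays, and 11.58 for CD68 on UC14 p63 shRNA arrays.

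In UC14, more genes of the set fell than rose under p63 shRNA. Of 34 genes tested, 18 fell, 5 rose and 11 did not pass, where 20.9% of all genes fell, 23.8% rose and 44.7% did either. For 20 genes every p63 shRNA array was below every non-targeting array (22.3% of all genes), and for 6 every one was above (24.7%). The median log2 change of the 34 genes was -0.42, beside 0.01 over all genes. SCD fell 2.75-fold and SQLE 2.27-fold, whereas TM7SF2 rose 4.50-fold. Epithelial markers moved as well: 8 of 12 rose, among them KRT8 and UPK2, and KRT5 fell, with their summed signal at 53580 to 57365 on p63 shRNA arrays and 36752 to 41892 on non-targeting arrays. Of markers of other cell types, CD68, PECAM1 and LEP rose and ACTA2 fell. PECAM1 gave 6.11, 6.58 and 6.02 under p63 shRNA against 6.20, 5.31 and 4.59. Its groups overlapped, near the lowest detected signals of these arrays (5.64 to 5.98). The summed signal of the 3 immune markers tested was 2934 to 3122 under p63 shRNA and 1147 to 1559 in the controls. Of these 3 only CD68 passed, with log2 signals of 11.54, 11.58 and 11.48 under p63 shRNA against 10.19, 10.09 and 10.53. The sum of fibroblast and muscle markers was 732 to 812 under p63 shRNA and 790 to 919 in the controls, and the part of these shifts in the result was not tested. In total RNA of a culture, less RNA per cell and fewer cells that express a gene cannot be told apart.

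In the mevalonate segment 4 of 7 genes fell and PMVK rose in UC14. MVK, mevalonate kinase, gave log2 signals of 5.96, 6.12 and 6.50 on the p63 shRNA arrays, against 7.12, 7.07 and 7.62 on the non-targeting arrays. Its change was -1.07 ± 0.18 (adjusted p = 0.000114), and the groups did not overlap. FDPS, which makes farnesyl diphosphate, gave log2 signals of 7.88, 7.22 and 7.37 on the p63 shRNA arrays, against 8.84, 8.26 and 8.51 on the non-targeting arrays. Non-targeting arrays were again all the brighter ones, with a change of -1.04 ± 0.15 (adjusted p = 2.9e-05). IDI1, the isomerase of isopentenyl diphosphate, gave log2 signals of 9.05, 9.15 and 9.34 on the p63 shRNA arrays, against 10.24, 9.88 and 10.08 on the non-targeting arrays, a change of -0.89 ± 0.13 (adjusted p = 3e-05) with both groups well apart. HMGCS1, which condenses acetoacetyl-CoA to HMG-CoA, fell less, by 0.37 ± 0.10 on the log2 scale. PMVK, phosphomevalonate kinase, was the member that rose (0.39 ± 0.13), with the highest non-targeting array at 7.83 and the lowest p63 shRNA array at 7.85. MVD (-0.24) and the thiolase ACAT2 (0.15) did not pass.

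In the sterol branch, 6 of 10 genes fell and 2 rose in UC14. SQLE, the epoxidase that makes squalene oxide, gave log2 signals of 10.15, 10.46 and 10.43 on the p63 shRNA arrays, against 11.67, 11.45 and 11.47 on the non-targeting arrays. The groups were 0.99 apart, with a change of -1.18 ± 0.11 (adjusted p = 2.06e-07). DHCR7, which reduces 7-dehydrocholesterol to cholesterol, gave log2 signals of 9.05, 8.96 and 8.88 on the p63 shRNA arrays, against 9.88, 9.64 and 9.63 on the non-targeting arrays, without overlap and with a change of -0.75 ± 0.12 (adjusted p = 5.69e-05). Smaller falls were those of NSDHL (-0.57), CYP51A1 (-0.46), MSMO1 (-0.45) and SC5D (-0.45), which remove methyl groups from the sterol ring or place its double bonds. LSS, lanosterol synthase, and EBP, the sterol isomerase, did not pass, at -0.22 and -0.19.

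The 2 sterol genes that rose in UC14 went against the rest of the branch. TM7SF2, a C14 sterol reductase that shares its reaction with the lamin B receptor, gave log2 signals of 10.43, 10.32 and 10.77 on the p63 shRNA arrays, against 8.09, 8.38 and 8.54 on the non-targeting arrays. The gap between the groups was 1.78 on the log2 scale, and the change, 2.17 ± 0.13 (adjusted p = 7.07e-10), was larger than that of any other of the 34 genes in this comparison. HSD17B7, a 3-ketosteroid reductase, gave log2 signals of 10.75, 10.71 and 10.56 on the p63 shRNA arrays, against 9.92, 9.56 and 10.09 on the non-targeting arrays, with every p63 shRNA array the brighter and a change of 0.82 ± 0.16 (adjusted p = 0.000541).

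**Figure D1:**
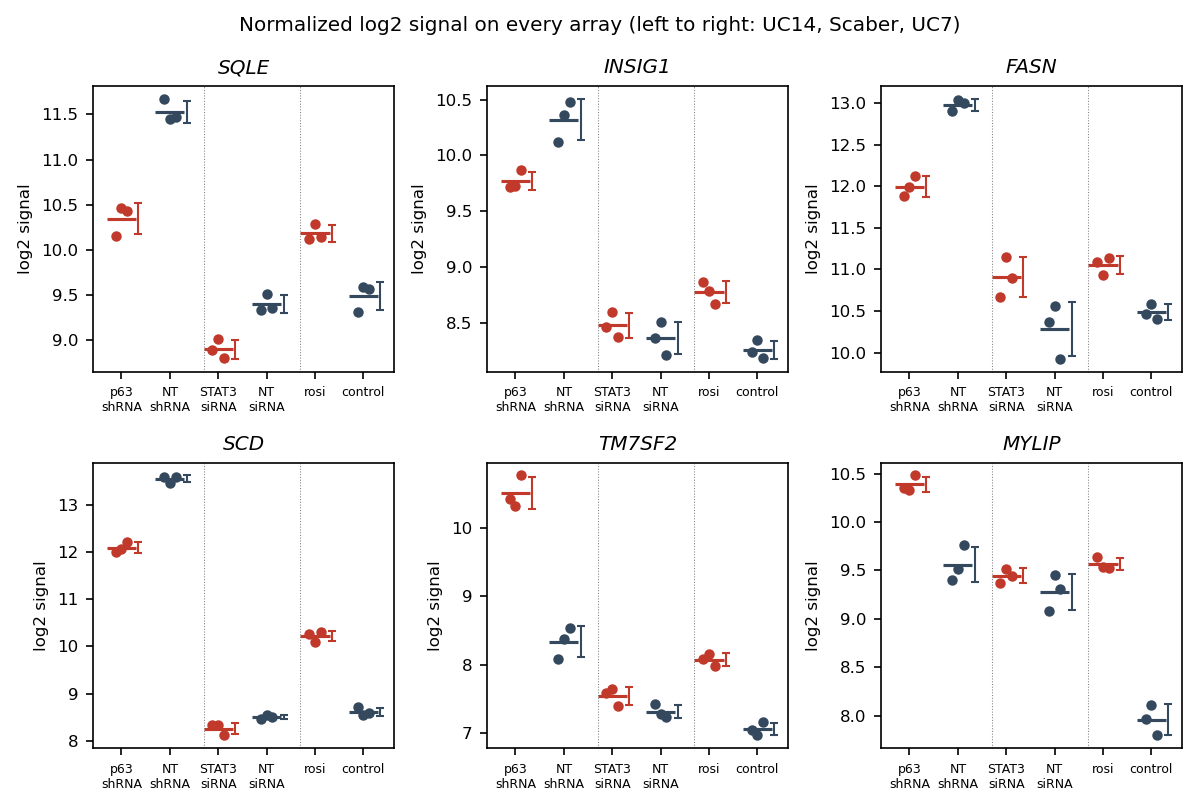
Normalized log2 signal (y axis) of 6 genes on each of the 18 arrays, with the treated group left of its control within UC14, Scaber and UC7 (NT, non-targeting; rosi, rosiglitazone). Points are arrays, bars the group mean and whiskers the SD of 3 arrays; the y axes do not start at 0 and differ between genes. SCD, SQLE, FASN and INSIG1 were lower under p63 shRNA and higher under rosiglitazone, while TM7SF2 and MYLIP were higher under both.

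Of 9 genes of fatty acid synthesis and desaturation, 4 fell and 1 rose in UC14. SCD, the stearoyl-CoA desaturase that makes oleate, gave log2 signals of 11.99, 12.06 and 12.22 on the p63 shRNA arrays, against 13.59, 13.47 and 13.60 on the non-targeting arrays. The 2 groups were separated by 1.25, and the change was -1.46 ± 0.09 (adjusted p = 1.81e-09). FASN, fatty acid synthase, gave log2 signals of 11.88, 11.99 and 12.12 on the p63 shRNA arrays, against 12.90, 13.03 and 13.00 on the non-targeting arrays. It was lower on every p63 shRNA array, by 0.98 ± 0.14 in the fit (adjusted p = 3.21e-05). ELOVL5, an elongase of polyunsaturated fatty acids, gave log2 signals of 8.15, 8.54 and 8.27 on the p63 shRNA arrays, against 9.04, 9.05 and 9.21 on the non-targeting arrays, again without overlap (-0.78 ± 0.12, adjusted p = 5.53e-05). ACLY, which splits citrate to acetyl-CoA, fell by 0.59 ± 0.11, and ACSS2, which makes acetyl-CoA from acetate, rose by 0.30 ± 0.10. ACACA, acetyl-CoA carboxylase, ELOVL6 and FADS1 did not pass, at -0.25, 0.23 and -0.07, and FADS2 was undetected in both groups.

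Among the regulators, INSIG1 fell by 0.55 ± 0.11 and SREBF1 by 0.43 ± 0.15 in UC14. SCAP (-0.16) did not pass, nor did SREBF2 (-0.73), which was detected on 1 of the 6 arrays. ABCA1, the pump that loads cholesterol onto apolipoprotein A-I, gave log2 signals of 7.76, 7.37 and 7.86 on the p63 shRNA arrays, against 8.82, 8.59 and 8.57 on the non-targeting arrays. Its groups did not overlap, and it changed by -0.999 ± 0.11 (adjusted p = 2.27e-06). MYLIP, the ubiquitin ligase that marks the LDL receptor for breakdown, gave log2 signals of 10.35, 10.33 and 10.48 on the p63 shRNA arrays, against 9.40, 9.52 and 9.76 on the non-targeting arrays, higher on every p63 shRNA array (0.83 ± 0.11, adjusted p = 1.69e-05). NPC1, the lysosomal cholesterol transporter, fell by 0.42 ± 0.09, and ABCG1 did not pass (0.16, adjusted p = 0.517), although another of its kept probes, at 0.52, did.

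Some of the smaller UC14 calls depended on single arrays or on the scaling. With array medians matched in place of quantile normalization, HMGCS1, CYP51A1, MSMO1, SC5D, SREBF1 and NPC1 did not pass (-0.26, -0.29, -0.34, -0.30, -0.30 and -0.30). That scaling gave 3144 higher and 1271 lower calls over all genes in UC14, against 2845 and 2506 in the quantile normalized data. CYP51A1 also lost its call without p63 shRNA replicate 2 or 3 or non-targeting replicate 1 or 2 (changes of -0.40, -0.45, -0.43 and -0.43). SREBF1 lost its call without p63 shRNA replicate 1 or 2 or non-targeting replicate 3 (-0.44, -0.39 and -0.36), and MSMO1 without p63 shRNA replicate 1 or non-targeting replicate 3 (-0.35 in both). PMVK lost it without p63 shRNA replicate 1 or non-targeting replicate 2 or 3 (0.26, 0.39 and 0.29), and ACSS2 without p63 shRNA replicate 3 or non-targeting replicate 1 (0.25 and 0.30). SREBF2 passed without non-targeting replicate 3, at -1.29, LSS without the same array, at -0.40, and ACACA without non-targeting replicate 1, at -0.33.

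In UC7, more genes of the set rose than fell under rosiglitazone. Of the 34 genes, 17 rose, 1 fell and 16 did not pass, where 12.5% of all genes rose, 12% fell and 24.5% did either. The median log2 change was 0.41, beside -0.00 over all genes. For 21 genes every rosiglitazone array was above every control array, which held for 25.0% of all genes, and for 3 genes every one was below (25.4%). MYLIP rose 3.05-fold and SCD 3.04-fold. Of the epithelial markers, GATA3, UPK1B, UPK2 and UPK3A rose, EPCAM fell and KRT5 passed as lower although it was undetected on all 6 arrays, with a summed signal of 40476 to 43659 on rosiglitazone arrays and 41389 to 45560 on control arrays. Of the other markers COL1A2, CD14 and PECAM1 rose and CD68 fell, with immune markers summing to 269 to 289 under rosiglitazone and 206 to 215 in the controls. Their part in the result was not tested.

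Of the 7 genes of the mevalonate segment, 5 rose in UC7. HMGCS1 gave log2 signals of 9.89, 9.99 and 9.82 on the rosiglitazone arrays, against 8.97, 9.10 and 9.06 on the control arrays. The lowest treated array was 0.73 above the highest control, and the change was 0.86 ± 0.10 (adjusted p = 5.89e-06). MVD, mevalonate diphosphate decarboxylase, gave log2 signals of 7.10, 7.02 and 7.26 on the rosiglitazone arrays, against 6.37, 6.39 and 6.25 on the control arrays, with all rosiglitazone arrays the brighter (0.79 ± 0.12, adjusted p = 9.37e-05). PMVK gave log2 signals of 8.90, 8.98 and 8.99 on the rosiglitazone arrays, against 8.51, 8.07 and 8.43 on the control arrays, a change of 0.62 ± 0.13 (adjusted p = 0.00251) without overlap. IDI1 gave log2 signals of 8.04, 8.15 and 8.02 on the rosiglitazone arrays, against 7.49, 7.53 and 7.64 on the control arrays, likewise apart (0.52 ± 0.13, adjusted p = 0.00695). ACAT2 rose by 0.51 ± 0.14, while MVK (0.44, adjusted p = 0.0882) and FDPS (0.11) did not pass.

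In the sterol branch 6 of 10 genes rose in UC7. TM7SF2 gave log2 signals of 8.08, 8.16 and 7.98 on the rosiglitazone arrays, against 7.05, 6.98 and 7.16 on the control arrays. The lowest treated array was 0.82 above the highest control, and the change was 1.01 ± 0.13 (adjusted p = 1.39e-05). SQLE gave log2 signals of 10.12, 10.29 and 10.14 on the rosiglitazone arrays, against 9.31, 9.59 and 9.57 on the control arrays, all rosiglitazone arrays being higher (0.69 ± 0.11, adjusted p = 0.000153). HSD17B7 gave log2 signals of 10.55, 10.82 and 10.71 on the rosiglitazone arrays, against 9.86, 9.90 and 10.40 on the control arrays, with control replicate 3 nearest to the treated group (0.64 ± 0.16, adjusted p = 0.00733). MSMO1, the C4 methyl oxidase, gave log2 signals of 9.71, 10.16 and 9.88 on the rosiglitazone arrays, against 9.29, 9.42 and 9.32 on the control arrays, and its lowest treated value was above the highest control (0.57 ± 0.14, adjusted p = 0.00469). DHCR7 rose by 0.50 ± 0.12 and NSDHL by 0.26 ± 0.09. EBP, SC5D, LSS and CYP51A1 did not pass, with changes between -0.12 and 0.15.

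Among the fatty acid genes 4 of 9 rose in UC7. SCD gave log2 signals of 10.26, 10.09 and 10.30 on the rosiglitazone arrays, against 8.71, 8.55 and 8.58 on the control arrays. The groups were 1.38 apart, with a change of 1.60 ± 0.09 (adjusted p = 1.45e-09). ACSS2 gave log2 signals of 9.17, 9.07 and 9.03 on the rosiglitazone arrays, against 8.31, 8.26 and 8.62 on the control arrays, again with no overlap (0.69 ± 0.10, adjusted p = 7.19e-05). FASN gave log2 signals of 11.09, 10.93 and 11.13 on the rosiglitazone arrays, against 10.47, 10.59 and 10.41 on the control arrays, higher on all treated arrays (0.56 ± 0.14, adjusted p = 0.0081). FADS1, the delta-5 desaturase, rose by 0.42 ± 0.10. ACLY (-0.02) and ACACA (0.02), which stand at the entry of the route, and the elongases ELOVL6 (0.05) and ELOVL5 (-0.24) did not pass, nor did FADS2 (0.16), the delta-6 desaturase.

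INSIG1 rose by 0.51 ± 0.11 in UC7. SREBF1 (0.40, adjusted p = 0.0621), SCAP (0.29, adjusted p = 0.0676) and SREBF2 (-0.06) did not pass, although every rosiglitazone array of SREBF1 and of SCAP was above every control array. MYLIP gave log2 signals of 9.64, 9.53 and 9.52 on the rosiglitazone arrays, against 7.97, 8.11 and 7.80 on the control arrays. Its lowest treated array was 1.41 above the highest control (1.61 ± 0.11, adjusted p = 1.69e-08). With the probes used, the other LXR targets of the set did not pass: ABCA1 differed by 0.25 and ABCG1 by -0.35. Another ABCG1 probe, detected on 3 treated and 0 control arrays, went the other way and passed as higher, at 0.63. NPC1 fell by 0.31 ± 0.09, and this call was lost without rosiglitazone replicate 2 or control replicate 1 or 2 (-0.24, -0.26 and -0.27).

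NSDHL lost its call in UC7 when any array but control replicate 3 was left out (changes of 0.23 to 0.28), and ACAT2 without rosiglitazone replicate 2 or control replicate 3 (0.46 and 0.43). SREBF1 passed without rosiglitazone replicate 1, at 0.50. With array medians matched, ACAT2, IDI1, MSMO1, NSDHL, INSIG1, FADS1 and NPC1 did not pass (0.41, 0.42, 0.45, 0.16, 0.41, 0.30 and -0.38), ABCG1 did (-0.46), and 11 genes rose. All genes then gave 1093 higher and 1609 lower calls in UC7, against 1492 and 1442. In a fit of the 6 UC7 arrays alone 21 genes rose and 3 fell; MVK, SREBF1, SCAP and ABCA1 were among those that rose, and ELOVL5 and ABCG1 joined NPC1.

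**Figure D2:**
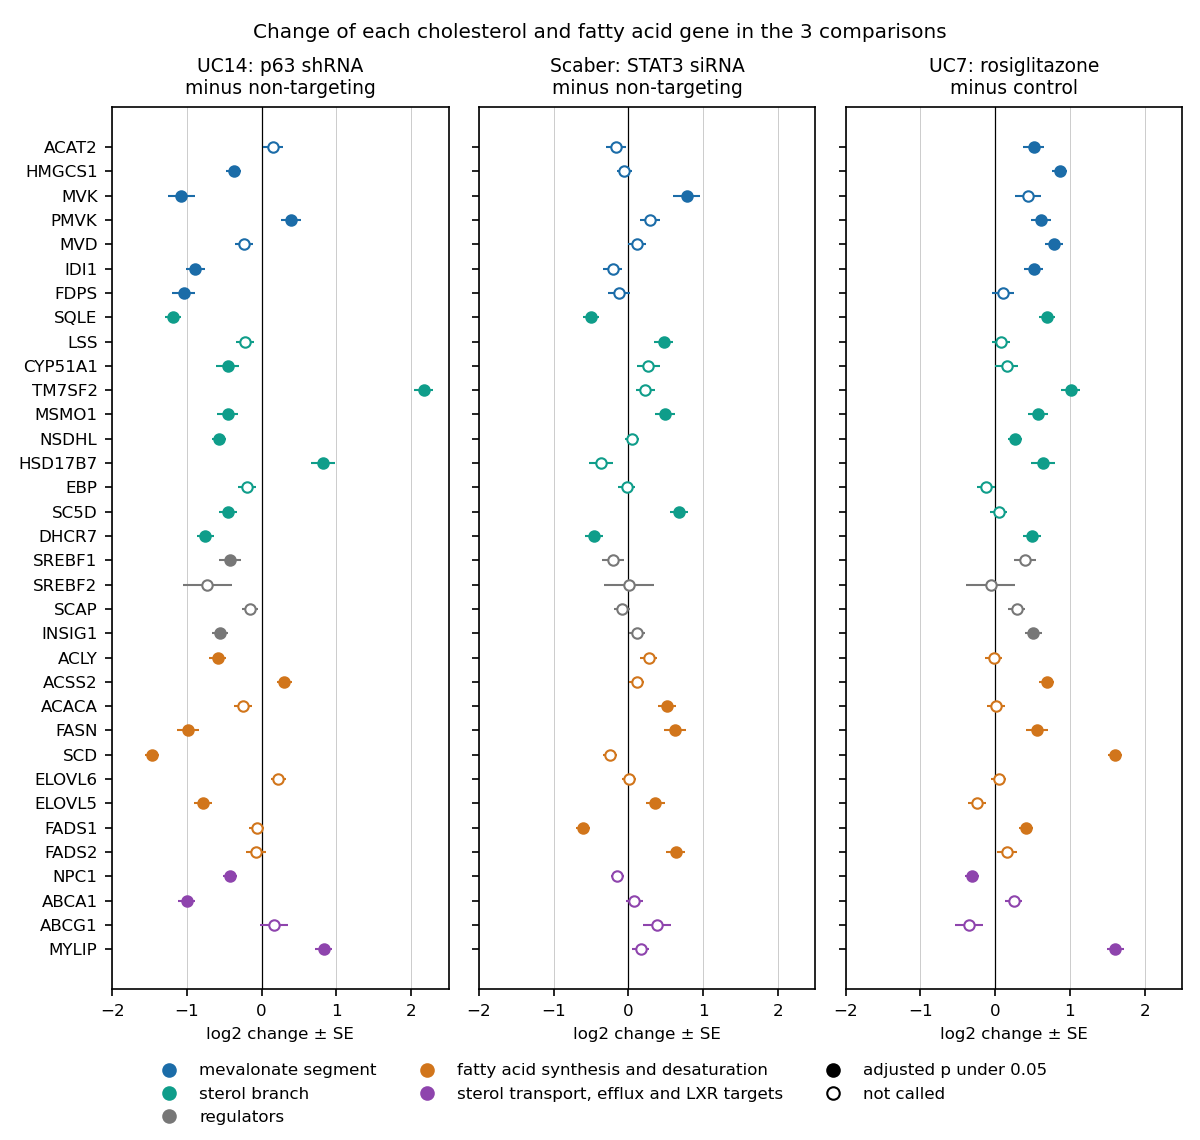
Log2 change with its standard error (x axis) of the 34 genes tested (y axis), by role, in UC14 under p63 shRNA, Scaber under STAT3 siRNA and UC7 under rosiglitazone, each minus its own control. Filled points passed the threshold: 18 fell and 5 rose in UC14, 8 rose and 3 fell in Scaber, and 17 rose and 1 fell in UC7.

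The changes in UC14 and UC7 rest on different arrays and can be set against each other. Of the 18 genes that fell in UC14, 9 (50%) rose in UC7, and they were 52.9% of the 17 that rose there: HMGCS1, IDI1, SQLE, MSMO1, NSDHL, DHCR7, INSIG1, FASN and SCD. Among all genes, 153 were lower in UC14 and higher in UC7, which is 6.11% of the genes lower in UC14 and 10.3% of those higher in UC7. All 5 genes that rose in UC14 also rose in UC7 (PMVK, TM7SF2, HSD17B7, ACSS2 and MYLIP), where 26.7% of all genes that rose in UC14 did so. NPC1 fell in both.

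The difference between the 2 changes was tested gene by gene. It passed for 23 of 34 genes (33.1% of all genes), 22 of them lower in UC14 than in UC7 (15.1% of all genes) and 1 higher (18%). For SCD the change in UC14 minus that in UC7 was -3.07 ± 0.13 (adjusted p = 4.87e-11) on the log2 scale. It was -1.87 ± 0.16 (adjusted p = 1.26e-07) for SQLE and -1.54 ± 0.20 (adjusted p = 2.23e-05) for FASN. TM7SF2 was the gene that rose more in UC14, by 1.16 ± 0.18 (adjusted p = 0.000118). MYLIP, which rose in both lines, rose less in UC14 (-0.78 ± 0.16, adjusted p = 0.00139), as did ACSS2 (-0.39 ± 0.14, adjusted p = 0.0488), and for HSD17B7 and PMVK no difference passed (0.18 ± 0.23, adjusted p = 0.588 and -0.23 ± 0.19, adjusted p = 0.382).

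**Figure D3:**
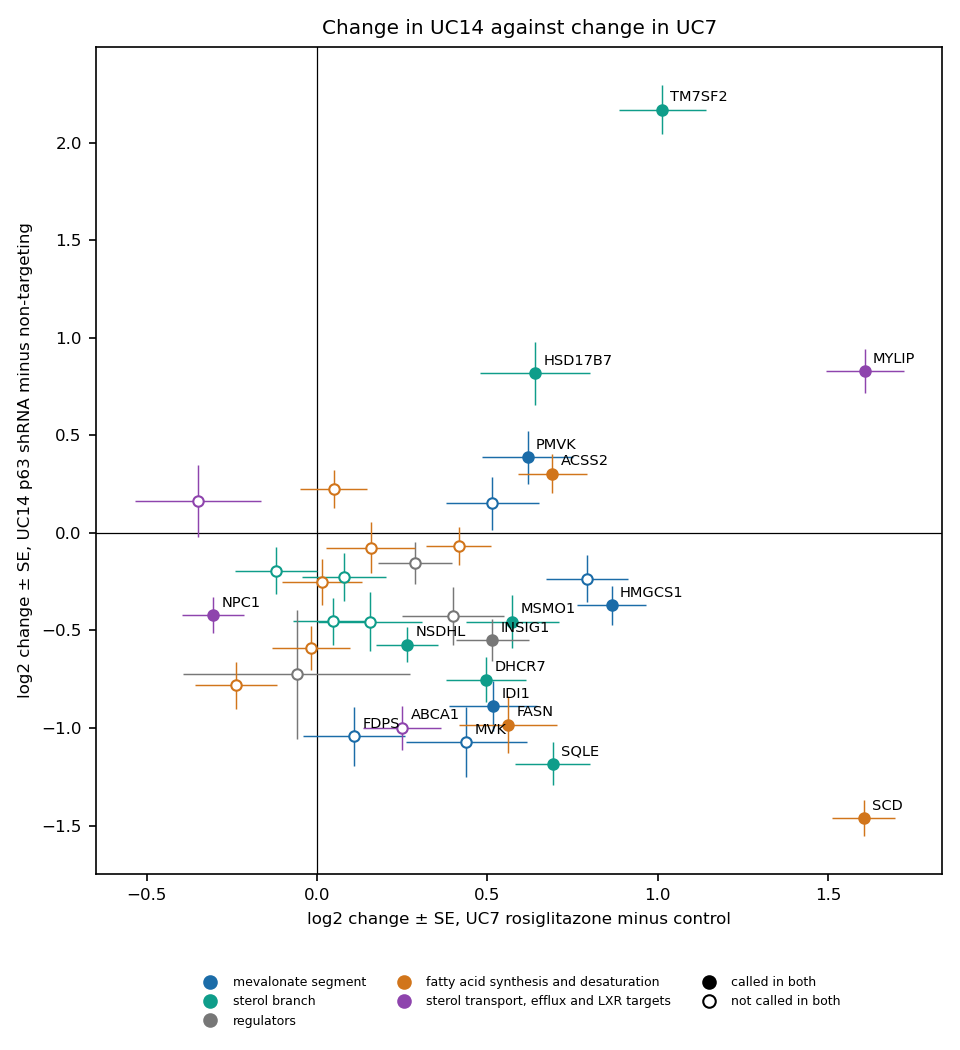
Log2 change in UC14 under p63 shRNA (y axis) against log2 change in UC7 under rosiglitazone (x axis) of the 34 genes tested, with standard errors; filled points passed the threshold in both. SCD lies at the lower right (-1.46 and 1.60), 9 filled points fell in UC14 and rose in UC7, and TM7SF2, HSD17B7, MYLIP, PMVK and ACSS2 rose in both.

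Promoters of 4 genes that fell in UC14 and rose in UC7 are shown beside those of 2 that rose in both, to let the CCAAT box be seen, which NF-Y, a partner of SREBP, is known to bind. The 4 are those of the 9 such genes with a single promoter in the table. The 2 were chosen from the genes that rose in both, of which PMVK held no CCAAT, so that its presence in the 6 shown is no result. The sequences are from RefSeq (GRCh38.p14), run 5′ to 3′ on the gene's strand from 250 bases before the start to 50 after it, and carry in capitals each CCAAT on either strand and the E-box CACGTG. The 4 that differed in direction are MSMO1 (chr4:165327419-165327718, plus strand), NSDHL (chrX:152830813-152831112, plus), INSIG1 (chr7:155297628-155297927, plus) and SCD (chr10:100346983-100347282, plus). The 2 that rose in both are TM7SF2 (chr11:65111622-65111921, plus) and MYLIP (chr6:16128836-16129135, plus).
MSMO1: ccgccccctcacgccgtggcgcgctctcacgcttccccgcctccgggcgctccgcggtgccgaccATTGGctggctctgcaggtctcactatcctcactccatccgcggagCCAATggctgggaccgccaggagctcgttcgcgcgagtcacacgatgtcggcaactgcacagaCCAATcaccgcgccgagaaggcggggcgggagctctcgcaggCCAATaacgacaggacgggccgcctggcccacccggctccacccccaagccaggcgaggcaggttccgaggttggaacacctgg
NSDHL: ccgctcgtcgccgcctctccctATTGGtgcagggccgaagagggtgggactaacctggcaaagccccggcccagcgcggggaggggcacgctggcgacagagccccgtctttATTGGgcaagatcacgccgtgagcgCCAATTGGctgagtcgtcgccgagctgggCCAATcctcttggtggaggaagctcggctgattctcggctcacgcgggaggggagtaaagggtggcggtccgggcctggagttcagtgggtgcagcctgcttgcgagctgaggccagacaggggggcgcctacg
INSIG1: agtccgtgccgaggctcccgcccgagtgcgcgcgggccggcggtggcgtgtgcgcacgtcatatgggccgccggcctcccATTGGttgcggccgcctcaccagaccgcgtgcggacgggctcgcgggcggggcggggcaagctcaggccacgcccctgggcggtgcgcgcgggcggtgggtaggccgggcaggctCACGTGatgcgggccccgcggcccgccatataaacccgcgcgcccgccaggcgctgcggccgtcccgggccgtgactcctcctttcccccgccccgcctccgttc
SCD: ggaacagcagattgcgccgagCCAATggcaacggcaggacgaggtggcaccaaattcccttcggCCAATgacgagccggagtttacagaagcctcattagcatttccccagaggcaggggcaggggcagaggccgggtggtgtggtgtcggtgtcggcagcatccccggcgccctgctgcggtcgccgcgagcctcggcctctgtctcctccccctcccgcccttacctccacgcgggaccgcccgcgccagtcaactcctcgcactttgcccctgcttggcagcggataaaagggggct
TM7SF2: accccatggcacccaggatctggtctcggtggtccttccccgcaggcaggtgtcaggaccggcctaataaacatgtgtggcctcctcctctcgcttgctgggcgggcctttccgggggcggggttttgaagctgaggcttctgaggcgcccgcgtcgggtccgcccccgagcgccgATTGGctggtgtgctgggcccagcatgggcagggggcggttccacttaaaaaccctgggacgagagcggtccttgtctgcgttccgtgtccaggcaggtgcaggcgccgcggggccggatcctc
MYLIP: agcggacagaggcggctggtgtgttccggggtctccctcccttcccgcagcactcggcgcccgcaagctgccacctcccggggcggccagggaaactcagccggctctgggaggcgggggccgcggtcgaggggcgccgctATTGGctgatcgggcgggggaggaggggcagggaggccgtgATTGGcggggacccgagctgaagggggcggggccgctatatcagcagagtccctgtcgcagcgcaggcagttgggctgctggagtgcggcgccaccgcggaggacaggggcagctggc

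CCAAT was present in 1 to 5 copies in the 6 promoters shown, with the largest number in NSDHL, where a copy on one strand overlaps a copy on the other. Of 31 genes of the set with a promoter in the table, 23 (74.2%) had at least 1 CCAAT in a promoter, where 43.8% of 9646 tested genes with a promoter had it. Counted by promoter, 27 of 41 of the set had it, where 34.6% of all 35116 promoters did. CACGTG was present for 6 of the 31 genes (19.4%), INSIG1, ABCA1, ELOVL5, SC5D, SCAP and LSS, where 12.6% of the tested genes had it. By promoter it was present in 7 of 41, where 7.26% of all promoters had it. An exact match to the classic sterol regulatory element was found in SREBF2 alone (0.145% of the tested genes and 0.154% of all promoters). Exact direct repeats of the nuclear receptor half-site, spaced by 1 or 4 bases, were found in 0 of the 31 genes. In the tested genes they were found in 0.0518% and 0.0104%. These 3 exact patterns were held by only 14, 5 and 1 of the 9646 tested genes. Sites that depart from the patterns were not searched, so the search cannot tell whether genes of the set lack such sites. Both strands were searched, a gene with several promoters counted once in the counts by gene, and a match is a run of letters, not a shown binding site. ABCG1, SQLE, FASN, ACAT2 and FDFT1 were not matched in the table.

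In Scaber, most genes of the set did not pass under STAT3 siRNA, and those that did moved in both directions. Of 34 genes, 8 rose, 3 fell and 23 did not pass, where 12.1% of all genes rose, 13.8% fell and 25.9% did either. The share of the set called in either direction was thus only a little above that of all genes. The share that rose was above, and the share that fell below, the matching share of all genes. Of the markers, EPCAM, CDH1 and ACTA2 rose and KRT19, KRT14, COL1A1, LUM, CD14 and CD68 fell. Epithelial markers summed to 11653 to 11869 under STAT3 siRNA and 10598 to 11330 in the controls, immune markers to 1945 to 2069 and 2934 to 2954, and their part in the result was not tested. Every siRNA array was above every control array for 9 genes (19.9% of all genes) and below for 6 (19.2%). The median log2 change was 0.09, beside 0.01 over all genes. With array medians matched 4 rose and 4 fell, and over all genes 411 were higher and 1905 lower, against 1451 and 1655.

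Sterol genes rose and fell in Scaber. MVK gave log2 signals of 6.59, 6.04 and 6.32 on the STAT3 siRNA arrays, against 5.22, 5.57 and 5.81 on the non-targeting arrays, with 1 control array undetected, no overlap and a change of 0.78 ± 0.18 (adjusted p = 0.00366). SC5D, the C5 desaturase, gave log2 signals of 8.60, 8.14 and 8.43 on the STAT3 siRNA arrays, against 7.65, 7.56 and 7.91 on the non-targeting arrays, with every siRNA array higher (0.68 ± 0.12, adjusted p = 0.000419). LSS gave log2 signals of 7.33, 7.11 and 7.06 on the STAT3 siRNA arrays, against 6.71, 6.69 and 6.69 on the non-targeting arrays, the controls lying within 0.02 of each other (0.47 ± 0.12, adjusted p = 0.00922). MSMO1 gave log2 signals of 8.91, 9.04 and 8.88 on the STAT3 siRNA arrays, against 8.28, 8.51 and 8.57 on the non-targeting arrays, also apart (0.49 ± 0.14, adjusted p = 0.0133). The falls were at SQLE, with log2 signals of 8.89, 9.01 and 8.80 on the STAT3 siRNA arrays, against 9.34, 9.51 and 9.35 on the non-targeting arrays, and at DHCR7, with log2 signals of 7.56, 7.65 and 7.72 on the STAT3 siRNA arrays, against 8.12, 8.30 and 7.89 on the non-targeting arrays. Neither gene's groups overlapped, and the changes were -0.50 ± 0.11 (adjusted p = 0.00274) and -0.46 ± 0.12 (adjusted p = 0.00755).

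Fatty acid genes were likewise split in Scaber. FASN gave log2 signals of 10.67, 11.15 and 10.89 on the STAT3 siRNA arrays, against 10.36, 10.56 and 9.93 on the non-targeting arrays, the siRNA arrays all being higher (0.62 ± 0.14, adjusted p = 0.00406). ACACA gave log2 signals of 9.07, 9.39 and 9.27 on the STAT3 siRNA arrays, against 8.64, 8.91 and 8.64 on the non-targeting arrays, without overlap (0.51 ± 0.12, adjusted p = 0.00374). ELOVL5 gave log2 signals of 9.09, 8.81 and 9.23 on the STAT3 siRNA arrays, against 8.85, 8.69 and 8.51 on the non-targeting arrays, where the lowest siRNA array was below the highest control (0.36 ± 0.12, adjusted p = 0.0349). FADS2 gave log2 signals of 5.18, 5.55 and 5.39 on the STAT3 siRNA arrays, against 4.58, 4.99 and 4.66 on the non-targeting arrays, was detected on 2 siRNA arrays and 0 control arrays and was at least 1.10-fold higher (adjusted p = 0.00181). FADS1, which lies beside FADS2 on chromosome 11, gave log2 signals of 7.89, 7.96 and 7.94 on the STAT3 siRNA arrays, against 8.37, 8.45 and 8.80 on the non-targeting arrays and was lower on every siRNA array (-0.61 ± 0.10, adjusted p = 0.000189). SCD differed by -0.24 (adjusted p = 0.0671). By limma 0 of 4 regulators and 0 of 4 transport genes passed, also 0 of each at an unadjusted p under 0.05. The regulators lay between -0.20 and 0.11, and NPC1, ABCA1, MYLIP and ABCG1 between -0.15 and 0.38.

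ELOVL5 lost its call in Scaber when STAT3 siRNA replicate 1 or 3 (changes of 0.34 and 0.27) or control replicate 2 or 3 (0.37 and 0.28) was left out. MSMO1 lost it when STAT3 siRNA replicate 2 (0.44) or control replicate 1 (0.40) was. CYP51A1 passed without non-targeting replicate 2, at 0.48, SREBF1 without STAT3 siRNA replicate 2, at -0.41, and HSD17B7 without STAT3 siRNA replicate 3, at -0.50. With array medians matched, LSS, MSMO1, ACACA and ELOVL5 did not pass (0.28, 0.37, 0.39 and 0.24) and SCD did, at -0.39.

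Tested against UC14, the change in Scaber differed for 21 genes (42.0% of all genes), 17 of which had the lower change in UC14 (19.1% of all genes) and 4 the higher (23.0%). MVK (-1.85 ± 0.25, adjusted p = 2.1e-05), FASN (-1.60 ± 0.20, adjusted p = 1.02e-05) and SC5D (-1.13 ± 0.17, adjusted p = 4.64e-05) fell in UC14 and rose in Scaber, as did MSMO1 and ELOVL5, so that 5 of the 18 genes that fell in UC14 (27.8%) and of the 8 that rose in Scaber (62.5%) were shared, where 17.2% and 29.6% of all genes were. SQLE fell in both, more in UC14 (-0.68 ± 0.16, adjusted p = 0.00205), and for DHCR7, which also fell in both, no difference passed (-0.29 ± 0.16, adjusted p = 0.17). Between Scaber and UC7 the change differed for 17 genes (28.1%), 13 lower in Scaber (15.3%) and 4 higher (12.8%). SQLE, DHCR7 and FADS1 fell in Scaber and rose in UC7, with differences of -1.19 ± 0.16 (adjusted p = 2.51e-05), -0.96 ± 0.16 (adjusted p = 0.000365) and -1.02 ± 0.14 (adjusted p = 3.25e-05). They were all 3 genes that fell in Scaber and 17.65% of those that rose in UC7, where 13.35% and 14.81% of all genes were shared. With the probes used, the 4 genes called in all 3 comparisons were SQLE, MSMO1, DHCR7 and FASN, and the 5 called in none were EBP, SREBF2, SCAP, ELOVL6 and ABCG1. The matching shares of all genes were not computed, so these 2 counts are given as a list only.

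Control cells of the 3 lines also differed in the level of these genes. For 21 of 34 genes all 3 UC14 control arrays lay above the 6 control arrays of the other lines, which held for 20.4% of all genes, and for 0 genes below them (20.1%). For 15 genes all 3 Scaber control arrays lay below the others (21.4%). The difference was widest for SCD, at 13.55 ± 0.07 in UC14, 8.50 ± 0.04 in Scaber and 8.61 ± 0.09 in UC7 (mean log2 signal ± SD, n = 3 each). FASN gave 12.98 ± 0.07, 10.28 ± 0.32 and 10.49 ± 0.09 in the same order, and IDI1 10.07 ± 0.18, 6.64 ± 0.18 and 7.55 ± 0.08. The level of SCD in UC7 under rosiglitazone, 10.22 ± 0.11, was below that in UC14 under p63 shRNA, 12.09 ± 0.12. All Scaber control arrays were above the others for HSD17B7, NPC1 and ABCA1 (19.4%), and all UC7 control arrays for PMVK, EBP and ELOVL5 (29.3%) and below for 6 genes (17.9%). Array runs are not given in the labels, so line and array run cannot be told apart in these levels, and they were not tested.

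**Figure D4:**
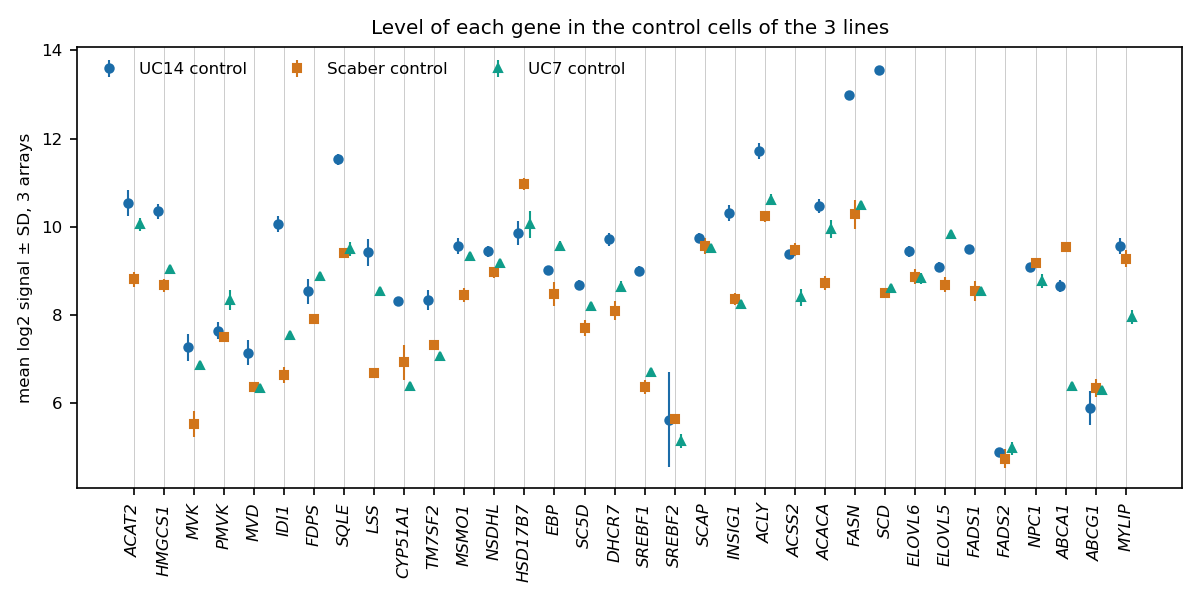
Mean log2 signal with SD of 3 arrays (y axis) of the 34 genes (x axis) in control cells of UC14, Scaber and UC7. Levels are set side by side between lines for a gene but not between genes, since probes differ. Line and array run cannot be told apart in them. SCD, for example, averaged 13.55 in UC14, 8.50 in Scaber and 8.61 in UC7.

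Some genes had several kept probes. SQLE changed by -1.20 in UC14, -0.55 in Scaber and 0.48 in UC7 with its other probe, and DHCR7 by -0.93, -0.33 and 0.52, all called as with the probe used. The other ACLY probe, at -0.35 in UC14, did not pass, and that of ACACA, at -0.34, did. A dimmer INSIG1 probe passed neither in UC14 (-0.35) nor in UC7 (0.20), with the signs of the probe used. A dimmer SREBF1 probe, at -0.61 in UC14, did not pass either. For MSMO1 a dimmer probe gave -0.03 in UC7 and 0.31 in Scaber without a call, and another gave -0.27 in UC14, also without one. For ACSS2 a dim probe passed neither in UC14 (0.58) nor in UC7 (-0.01), while another passed in both (0.39 and 0.73). A dim ACAT2 probe, at 0.29 in UC7, did not pass. ELOVL6 differed in sign between its 2 probes in UC14 (0.23 and -0.19), neither of which passed.

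Other genes of these pathways were read from 3 further lists. Of 6 further sterol genes tested, 1 rose and 1 fell in UC14, 2 rose and 1 fell in Scaber, and 1 rose and 1 fell in UC7. ACAT1, the mitochondrial thiolase, changed by -0.42, 0.60 and -0.47 in the same order. MBTPS1, the site-1 protease that cuts SREBP, rose by 0.49 in UC14, INSIG2 fell by 0.65 and GGPS1, geranylgeranyl diphosphate synthase, rose by 0.40 in Scaber, and TMEM97, a regulator of NPC1, rose by 0.42 in UC7.

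Of 18 further fatty acid genes, 8 rose and 3 fell in UC14, 5 rose and 3 fell in Scaber, and 5 rose and 3 fell in UC7. The shares of all genes to set beside them are those given for the sterol genes. In UC14 the acetyl-CoA carboxylase ACACB and the triglyceride synthase DGAT2, both undetected in the controls, were at least 1.82-fold and 1.72-fold higher, the elongase ELOVL7 rose by 1.03 and the phosphatidate phosphatase LPIN1 fell by 1.08. HSD17B12, the reductase of fatty acid elongation, fell by 1.24 in Scaber, the acyltransferases GPAM and AGPAT2 fell by 0.73 and 0.61, and LPIN1 rose by 0.67. In UC7 the acyl-CoA synthetase ACSL5 rose by 1.38 and the citrate carrier SLC25A1 by 0.86, while ACSL4 fell by 1.11 and malic enzyme ME1 by 0.86.

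Of 12 further genes of sterol traffic, 3 rose and 1 fell in UC14, 2 rose in Scaber, and 2 rose and 2 fell in UC7. The same shares of all genes apply, and the rises in UC14 lie near theirs. NR1H3, which encodes LXRα, rose in each: by 0.91 ± 0.11 in UC14, 0.35 ± 0.11 in Scaber and 1.07 ± 0.11 in UC7. LPCAT3, a phospholipid acyltransferase known as an LXR target, fell by 0.32 in UC14 and rose by 0.93 in UC7. NPC2, the lysosomal partner of NPC1, rose by 0.34 in UC14 and fell by 0.45 in UC7, and the lysosomal lipase LIPA rose by 0.38 in Scaber and fell by 0.29 in UC7. ABCA2, the third gene called higher in UC14, was detected on 1 p63 shRNA array and 0 control arrays, with log2 signals of 4.76, 4.73 and 6.06 on the p63 shRNA arrays, against 4.36, 4.36 and 4.48 on the non-targeting arrays. Replicate 3 under p63 shRNA stood above the other 5 UC14 arrays, and no fold is given.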

How the data were processed

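Total RNA of 18 samples was labelled with biotin and hybridised to Illumina bead arrays of 47323 probes. The authors deposited non-normalized intensity values with a detection p-value per probe, per the file headers, and log2 values whose scale matched quantile-normalized signals within 0.14 per probe. The submitters' processing notes name limma; versions and software settings are not given in the sources used here. Here the intensities were corrected by normexp from the detection p-values (offset 16), quantile normalized and put on a log2 scale with neqc of limma 3.58.1 in R 4.3.3. Of 47323 probes, 30113 had 1 gene symbol, 8 several and 17202 were not listed. Named probes detected at p under 0.01 on all 3 arrays of a group were kept (16221), and the brightest stood for its gene (11978 genes). A fit with 6 group means and empirical Bayes moderation had 12 residual degrees of freedom, and comparisons and differences between them were contrasts, adjusted over all genes. The fit was tested on simulated data. An undetected group gives a lower bound of a fold. The called genes with the largest changes, up to 12 a comparison, are given on every array. Members and lists were chosen with earlier results of these data known. Alternatives were another background correction, scaling, filter, probe rule, array weights, the authors' log2 values, the 6 arrays of a line alone, a replicate block and leaving out each array.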

Additional observations from a re-analysis of the deposited data

How the results depend on the processing

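None of 1626 re-estimated changes of the 34 genes, over the alternatives and left-out arrays run, reversed a called direction; 1535 kept their side of the threshold, 60 lost a call and 31 gained one. Array medians matched in place of quantile normalization gave 4 genes higher in Scaber (8 in the quantile normalized data) and 11 in UC7 (17), and moved the median of all genes to 0.10 in UC14, -0.07 in Scaber and -0.06 in UC7; the median of the 34 genes in Scaber became -0.04. Array weights gave 3 genes higher in UC14 (5) and 3 lower in UC7 (1), and the 6 UC7 arrays alone gave 3 lower. All genes called in UC7 were 2453 higher and 2441 lower with array weights, and 2400 and 2431 with the 6 arrays alone. The 6 UC14 arrays alone gave 2089 higher and 1764 lower of all genes, against 2845 and 2506 in the fit of all arrays. PMVK and MSMO1 then lost their calls in UC14. The causes were not tested. With single arrays left out, 4 to 5 genes rose and 16 to 18 fell in UC14, 7 to 8 rose and 3 to 4 fell in Scaber, and 15 to 17 rose and 0 to 1 fell in UC7. The difference of changes then passed for 21 to 22 genes between UC14 and Scaber, 19 to 25 between UC14 and UC7, and 14 to 19 between Scaber and UC7. Same-numbered arrays correlated in their deviations at -0.11 to 0.26 and different-numbered ones at -0.32 to 0.29, so the numbers were not taken as pairs. Both ends of the wider range were in Scaber, where a pairing under other numbers was not tested. With the replicate block, added also by title letter after seeing the data, 5 genes rose and 18 fell in UC14, 7 and 3 in Scaber, and 16 and 1 in UC7, ELOVL5 losing its call in Scaber and NSDHL in UC7. Probes near background, as for SREBF2, FADS2 and MVK, limit precision, as do 3 arrays per group.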
